A study of Mus musculus with 19 samples.

Results

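Retinal microglia sorted on day 3 after laser-induced choroidal neovascularization (CNV d3) were compared with microglia of unlasered retinas for 9 genes of the coagulation and plasminogen system. The members were F3, F7, F10, F13a1, F11r, Plau, Plaur, Thbd and Procr, and they were found by their gene symbol. Of these, 8 had a row among the 27299 genes of the table, while F7 had no row and was not analysed here. Each group held 6 samples of 8-week-old mice. Control mice received no laser, and CNV d3 mice received 6 argon laser burns per eye, of which the central retina was used. The labels name the strain as C57BL/6J, whereas the methods of the study describe mice in which GFP replaces 1 allele of Cx3cr1. According to the labels the sorted cells carried CD45, CD11b and CX3CR1 and lacked Ly6C and Ly6G. Neither source states whether the samples came from separate animals or from pools, so the p-values measure the spread between these samples only.

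Blood coagulation starts when tissue factor, the product of F3, meets the circulating protease factor VII. This complex activates factor X, which in turn generates thrombin, and factor XIII then cross-links the fibrin clot. Thrombomodulin (Thbd) and the endothelial protein C receptor (Procr) turn thrombin towards the anticoagulant protein C pathway. Fibrin is removed by plasmin, which urokinase (Plau) releases from plasminogen, often while bound to its receptor uPAR (Plaur). F11r carries the name of factor XI only in its symbol: it encodes junctional adhesion molecule A, a protein of cell contacts and platelets. Microglia, the resident phagocytes of the retina, meet plasma proteins when vessels leak.

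The windows of 250 bases before to 50 bases after the transcription start are shown for F10 and F11r, the members whose groups did not overlap. F10 lies on chromosome 8 at 13037308 to 13056676, plus strand (GRCm38), 1498 bases downstream of F7 and 4237 bases upstream of Proz, which encodes the anticoagulant cofactor protein Z. F11r spans chromosome 1 at 171437535 to 171464603, plus strand. The sequences are from RefSeq on GRCm38.p6, from chr8:13037058-13037357 for F10 and chr1:171437311-171437610 for F11r. Capitals mark matches, on either strand, to a TATA box (TATAAA), a GC box (GGGCGG), an AP-1 element (TGANTCA), a PU.1 core (GAGGAA) or an E-box (CACGTG).
F10: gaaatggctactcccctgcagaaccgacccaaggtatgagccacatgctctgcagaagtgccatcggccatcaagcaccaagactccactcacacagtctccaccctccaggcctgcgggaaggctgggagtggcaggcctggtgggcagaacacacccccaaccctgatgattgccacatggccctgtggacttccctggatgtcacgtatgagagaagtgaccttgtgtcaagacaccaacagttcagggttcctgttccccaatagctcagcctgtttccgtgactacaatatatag
F11r: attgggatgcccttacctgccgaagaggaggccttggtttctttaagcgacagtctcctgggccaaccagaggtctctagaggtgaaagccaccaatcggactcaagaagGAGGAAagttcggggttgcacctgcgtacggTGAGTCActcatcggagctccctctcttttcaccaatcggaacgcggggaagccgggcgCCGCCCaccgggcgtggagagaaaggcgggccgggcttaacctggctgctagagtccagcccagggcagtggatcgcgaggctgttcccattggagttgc

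None of these letters occurred in the F10 window, in which 55.7% of the bases were G or C. The F11r window held 1 match each to the PU.1 core, the AP-1 element and the GC box, in this order, at a GC content of 60.3%. Among 32851 promoter windows of the same length, 28.3% contained the PU.1 core, 7.81% the AP-1 element, 35.7% the GC box, 13.6% the TATA box and 7.15% the E-box. These matches describe letters and are not binding sites. A window was available for 7 of the 9 members.

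The depth differed between the groups. Control samples held 10963178 to 22335233 reads on genes, with the lowest in replicate 6, and CNV d3 samples held 23532260 to 29523018 reads. The deposited values were counts divided by a size factor for each sample (normalized counts), and 1 read corresponded to 0.739 to 1.99 normalized counts. GEO lists every control, and among the CNV d3 samples replicate 4, in 2 parts, so apart from that replicate this listing and the groups cannot be told apart. Reads of the Y-linked gene Ddx3y were found in CNV d3 replicates 4 to 6, at 1239 to 1450 normalized counts, and in no other sample. The controls therefore had a counterpart without Ddx3y reads only in CNV d3 replicates 1 to 3. In these 3 samples Xist, a gene of X inactivation, was at 3116 to 5245 normalized counts, below the 6522 to 9795 of the controls. F10, F11r, Plau and Plaur are also given for this subset, and no member changed its call or direction in it. The summed level of 10 microglial markers was 1354510 to 1524980 normalized counts in controls and 754090 to 1135280 in CNV d3 samples, with P2ry12 decreased. The summed level of 12 monocyte markers was 393 to 1234 in controls and 5021 to 52405 in CNV d3 samples. Of the 12, 6 were increased, against 3.91% of all genes. Most of the sum at CNV d3 was Fn1, with a mean of 22.1 in controls and 19206 in CNV d3 samples. The paper lists Fn1 among the genes most increased in CNV-associated microglia, so this sum does not measure monocytes alone.

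Differentially expressed genes (DEG) were defined by an adjusted p below 0.05 in limma and an absolute log2 fold change above 1.5, on log2(normalized count + 1). Of the 8 members, 1 was a DEG with higher expression at CNV d3, F10, against 3.91% of all genes, and 0 were DEG with lower expression, against 1.07% of all genes. At an adjusted p below 0.05 and any fold change, 1 member was higher (F10; 8.29% of all genes) and 1 was lower (F11r; 4.57%). With edgeR and DESeq2 the number of DEG members was likewise 1 with higher and 0 with lower expression. Among all 27299 genes edgeR called 839 higher and 281 lower, and DESeq2 908 and 572. At an unadjusted p below 0.05 limma counted 3 members higher and 1 lower, but all genes were not counted at this threshold. The groups did not overlap for the same genes, with F10 above control (4.64% of all genes) and F11r below control (2.83%). The median log2 fold change was 0.68 over the 8 members and 0.15 over all genes. When F10 and other genes without reads in 1 group were set to the limit that 3 reads allow, or left out below it, these medians were 0.68 and 0.11. The member median lay between Plau (0.61) and F3 (0.75), and F10 stayed above both, so its limit could not move this median. The median also depended on the method: Plau and F3 were at 0.46 and 0.07 in edgeR, and at 0.44 and 0.05 in DESeq2.

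**Figure D1:**
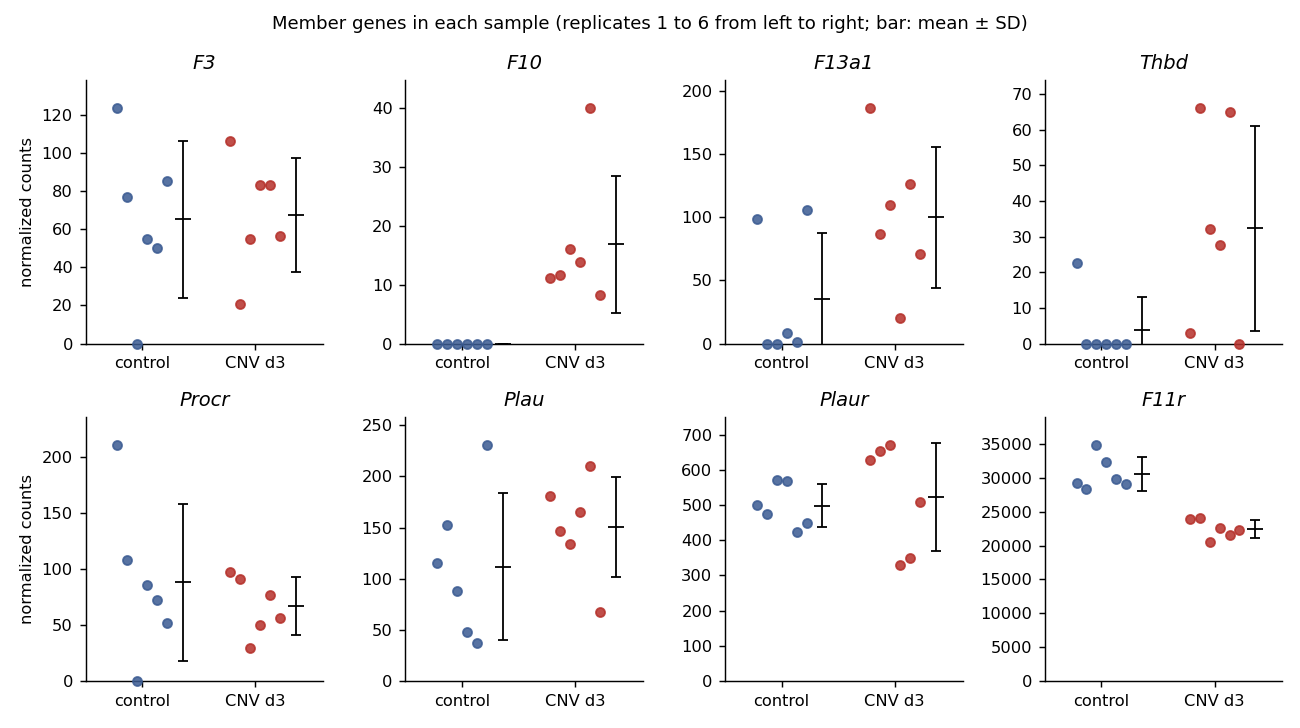
Normalized counts of the 8 members in each sample, with replicates 1 to 6 of each group from left to right and the mean ± SD beside them (error bars end at 0). F10 was at 0 in all 6 controls and between 8.31 and 40.0 in CNV d3 samples, and F11r was lower in all 6 CNV d3 samples than in every control.

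Tissue factor (F3, chromosome 3 at 121723537 to 121735048, plus strand) starts the extrinsic pathway. Controls ranged from 0 to 123 normalized counts with a median of 65.9, and CNV d3 samples from 20.9 to 106 with a median of 69.8. The groups overlapped over most of their range, and only control replicate 3 was without reads. The log2 fold change was 0.75 ± 0.98 (SE, n = 6 per group, limma adjusted p = 0.612), with a 95% interval of -1.34 to 2.83. Without control replicate 3 it was -0.29, so the direction rested on this sample. The data therefore leave the change of F3 unresolved in either direction.

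F10 encodes factor X, the protease at which both branches of the cascade meet. No read of F10 was found among 115732157 control reads, while every CNV d3 sample held between 10 and 50 reads, 123 in total. The CNV d3 values were 8.31 to 40.0 normalized counts with a median of 12.8, and replicate 5 lay well above the other 5 samples. The mean was 16.8 ± 11.7 (SD, n = 6). Against the limit of 3 reads in the shallowest control, which corresponds to 5.96 normalized counts, F10 was at least 2.83-fold higher. Without CNV d3 replicate 5 the mean was 12.2 and the bound was 2.05-fold. On the CPM scale, which divides by the total reads of each sample, the limit of 3 reads was 0.274. The CNV d3 samples held 0.385 to 1.87 on this scale. The log2 difference was 3.97 ± 0.56 (SE, limma adjusted p = 0.000316), and the exact two-sided permutation p of 0.00216 was the smallest that 6 against 6 samples can give.

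The call of F10 was kept in each of the 12 fits without 1 sample. Leaving out a control could not move the log2 difference of 3.97, since all controls were at 0. The fits without a CNV d3 sample gave 3.69 to 4.12, with 3.69 reached without replicate 5. CNV d3 replicates 1 to 3 alone, without Ddx3y reads, held 11.1 to 16.1 normalized counts of F10 and differed from the controls by 3.79 on the log2 scale (limma adjusted p = 2.37e-05). With a pseudocount of 10 the difference was 1.34 and no longer above the fold threshold, although the adjusted p was 0.00134. The level stayed low in both groups: per kilobase of exon, F10 ranked 13285 of 27238 genes at CNV d3. The monocyte marker Ly6c2, whose protein Ly6C was excluded by the sort, was at 0 in the 6 controls and at 1.73 to 25.1 normalized counts in CNV d3 samples. Chil3 and Ly6c1, also at 0 in all controls, did not pass the test (limma adjusted p = 0.0833 and 0.539) and were at 0 in 2 and 5 CNV d3 samples. Fn1 made up most of the summed level at CNV d3. The part of such cells in the F10 reads was not tested.

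The catalytic A chain of factor XIII is encoded by F13a1 (chromosome 13 at 36867178 to 37050244, minus strand), a gene known from platelets, monocytes and macrophages. Controls fell into 4 samples with 0 to 8.12 normalized counts and 2 samples, replicates 1 and 6, with 98.8 and 105. CNV d3 samples ranged from 19.9 to 186 with a median of 98.1. The control values thus reached beyond the CNV d3 median. The log2 fold change was 3.46 ± 1.21 (SE), with a 95% interval of 0.88 to 6.04, and it missed the threshold (limma adjusted p = 0.0773). Without control replicate 1 or control replicate 6 the adjusted p was 0.0410 and 0.0373, and F13a1 was then a DEG at 4.20 and 4.22. The other 10 leave-outs gave adjusted p of 0.0998 to 0.196. The estimate also depended on the method, with 1.53 in edgeR and 1.497 in DESeq2 on the log2 scale (adjusted p = 0.352 in both).

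Markers of other cells that make factor XIII were compared beside F13a1. Of 8 markers of border macrophages, which line vessels and meninges, 3 were increased at CNV d3 in limma (Cbr2, Folr2 and Clec10a), against 3.91% of all genes. With edgeR 1 marker was increased, and with DESeq2 2 were increased and Mrc1 was decreased. The mean of Mrc1 was 350 normalized counts in controls and 113 in CNV d3 samples (limma adjusted p = 0.233). The summed level was 175 to 2517 in controls and 607 to 1039 in CNV d3 samples. The platelet integrin Itga2b was at 0 in all controls and in 4 CNV d3 samples, and the sum of 5 platelet markers, mostly Itgb3, was 2496 to 4014 in controls and 1471 to 2504 in CNV d3 samples. The part of these cells in F13a1 was not tested. In samples of sorted cells, fewer cells of a type and less RNA per cell cannot be told apart. The exons of F13a1 overlap the opposite-strand gene Gm30489 over 74 bases, and the counting did not use strand.

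Thrombomodulin (Thbd, chromosome 2 at 148404466 to 148408188, minus strand) is the thrombin receptor of the vessel wall and is also made by monocytes and dendritic cells. Control replicate 1 held 22.5 normalized counts and the other 5 controls held 0. CNV d3 samples ranged from 0 to 66.1 with a median of 30.0, with replicate 6 at 0 and replicate 1 at 2.96. Thbd reads were thus found in 5 of 6 CNV d3 samples and in 1 of 6 controls. The log2 fold change was 3.24 ± 1.18 (SE, limma adjusted p = 0.0893; 95% interval 0.73 to 5.75). Without control replicate 1 the adjusted p was 0.0331, and without CNV d3 replicate 6 it was 0.0362, and Thbd was then a DEG. The other 10 leave-outs gave 0.0923 to 0.203, and edgeR and DESeq2 gave 0.187 and 0.186. With a pseudocount of 10 the log2 fold change was 1.42. Of 7 dendritic cell markers 4 were increased at CNV d3 in limma, against 3.91% of all genes. The summed level of the 7 was 23.8 to 514 normalized counts in controls and 331 to 2208 in CNV d3 samples. The part of dendritic cells in the Thbd reads was not tested.

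The endothelial protein C receptor (Procr, chromosome 2 at 155751117 to 155755471, plus strand) presents protein C to the thrombin-thrombomodulin complex. Controls ranged from 0 to 210 normalized counts with a median of 78.8, and CNV d3 samples from 29.5 to 97.5 with a median of 66.7. All CNV d3 samples lay within the range of the controls, of which replicate 3 was again without reads. The fold change had no stable direction. It was 0.51 ± 1.01 (SE, limma adjusted p = 0.748; 95% interval -1.65 to 2.66) on the log2 scale, and -0.59 without control replicate 3. The ratio of the group means was 0.761. Endothelial markers were low in both groups, with 7 genes summing to 500 to 990 normalized counts in controls and 463 to 970 in CNV d3 samples. Single markers differed in opposite directions: Kdr rose from 315 to 595 (limma adjusted p = 0.0452), and Pecam1 fell from 392 to 138 (adjusted p = 0.0236). Cdh5 was at 29.1 ± 30.3 in controls and 38.5 ± 28.2 in CNV d3 samples (SD, n = 6). Their part in the Procr level was not tested.

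**Figure D2:**
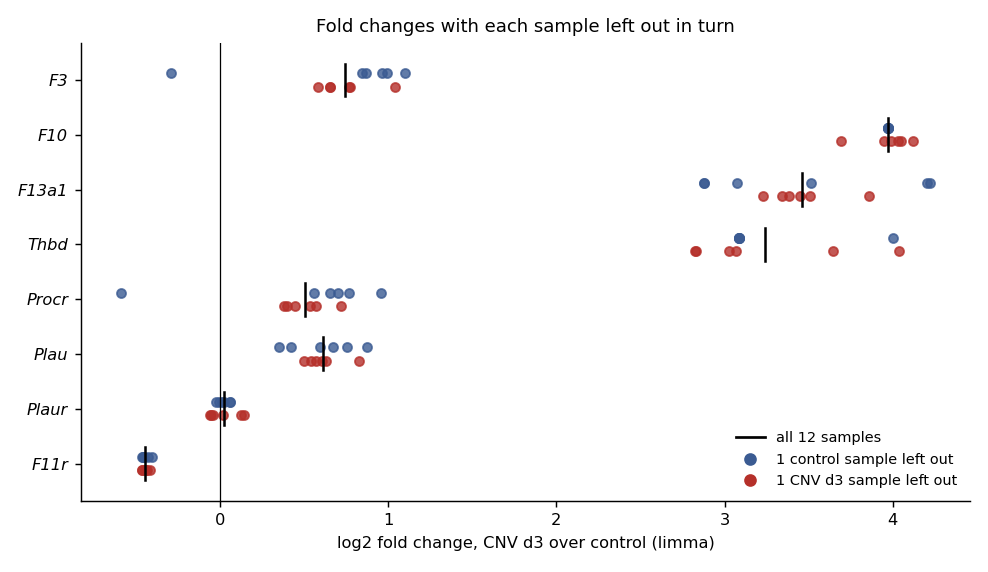
Log2 fold change of each member in limma with all 12 samples (vertical line) and with 1 control or 1 CNV d3 sample left out (points). F3 and Procr changed sign without control replicate 3, at -0.29 and -0.59, whereas F10 and F11r kept their position. F10 was at 0 in all controls, so leaving out a control could not move it.

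Urokinase (Plau, chromosome 14 at 20836660 to 20843385, plus strand) converts plasminogen to plasmin. Controls ranged from 37.1 to 230 normalized counts with a median of 101, and CNV d3 samples from 67.3 to 211 with a median of 156. The highest value belonged to a control, replicate 6. The log2 fold change was 0.61 ± 0.44 (SE, limma adjusted p = 0.434), and its 95% interval of -0.33 to 1.56 included both no change and a change at the fold threshold. CNV d3 replicates 1 to 3 alone gave 0.71 (adjusted p = 0.559).

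The urokinase receptor Plaur (chromosome 7 at 24462484 to 24475968, plus strand) focuses plasmin formation at the cell surface. Controls ranged from 424 to 571 normalized counts with a median of 487, and CNV d3 samples from 328 to 669 with a median of 568. The CNV d3 samples fell on both sides of the controls. Over all samples the log2 fold change was 0.02 ± 0.20 (SE, limma adjusted p = 0.951; 95% interval -0.41 to 0.46). CNV d3 replicates 1 to 3, without Ddx3y reads, held 628 to 669 normalized counts and all exceeded the highest control. Replicates 4 to 6, with Ddx3y reads, held 328 to 508, and 2 of these 3 lay below the lowest control. When only replicates 1 to 3 were compared with the controls the log2 fold change was 0.39 ± 0.11 (SE; 95% interval 0.14 to 0.65), but the limma adjusted p was 0.0899. The difference between both sets of CNV d3 samples was not tested.

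**Figure D3:**
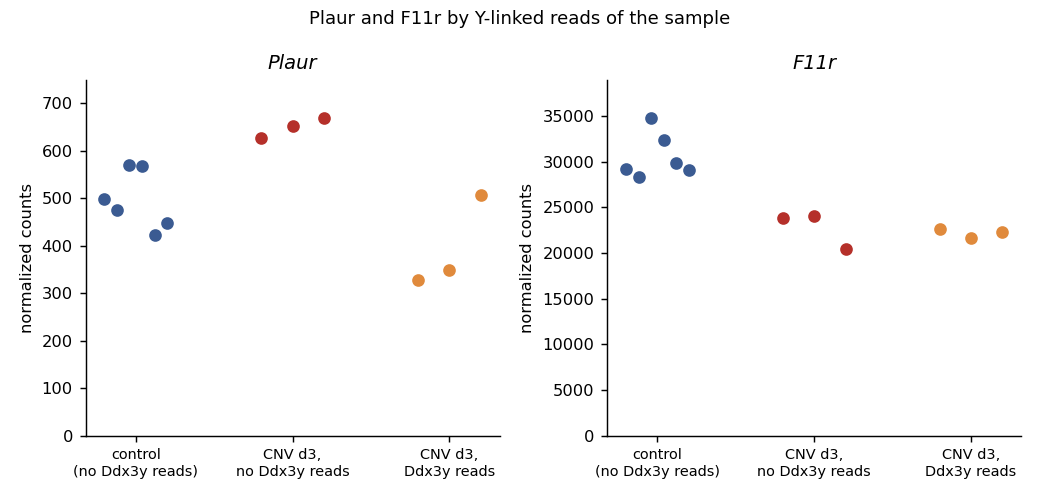
Normalized counts of Plaur and F11r in the controls and in CNV d3 samples with and without reads of the Y-linked gene Ddx3y, 1 point per sample. Plaur was at 628 to 669 in the 3 CNV d3 samples without Ddx3y reads and at 328 to 508 in the 3 with them, while F11r was below all controls in both sets.

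F11r was by far the most abundant member. It held 28304 to 34797 normalized counts in controls with a median of 29550, and 20467 to 24045 in CNV d3 samples with a median of 22427. Every CNV d3 sample was below every control. The ratio of the means was 0.734, and the log2 fold change was -0.44 ± 0.067 (SE, limma adjusted p = 0.000513; 95% interval -0.59 to -0.30; exact two-sided permutation p = 0.00216). This change passed the adjusted p but not the fold threshold, so F11r was no DEG. Leaving out 1 sample moved it between -0.47 and -0.41. CNV d3 replicates 1 to 3 alone gave -0.43 (adjusted p = 0.0292). Of the 10 microglial markers, 7 were also lower at an adjusted p below 0.05, against 4.57% of all genes. On the log2 scale P2ry12 fell by 1.65, whereas Olfml3, Csf1r and Fcrls did not pass (limma adjusted p = 0.637, 0.157 and 0.401). The part of the cell composition in the F11r level was not tested.

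**Figure D4:**
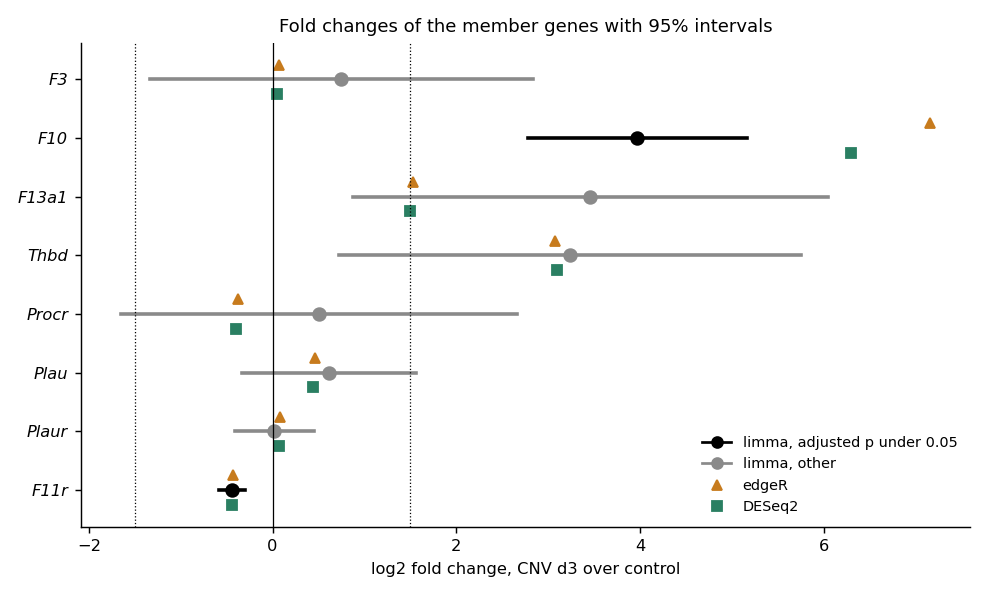
Log2 fold change of the members, CNV d3 over control, with the 95% interval of limma (bars; black for an adjusted p below 0.05) and the estimates of edgeR (triangles) and DESeq2 (squares). Dotted lines mark the fold threshold of 1.5 in both directions, which the interval of F11r, from -0.59 to -0.30, did not reach. The interval of F10, from 2.78 to 5.16, lay above it but rested on the pseudocount of 1, as all controls were at 0. With a pseudocount of 10 the F10 estimate was 1.34, below the threshold.

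Each member was also tested alone by an exact two-sided permutation of the 12 sample labels on the log2 scale. The unadjusted exact p was 0.0281 for Thbd, 0.0346 for F13a1, 0.214 for Plau, 0.723 for F3, 0.898 for Procr and 0.918 for Plaur, in a family of 8 tests. Beside these unadjusted values, limma gave Thbd and F13a1 an adjusted p over all genes of 0.0893 and 0.0773.

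Per kilobase of exon, both groups gave the same order of the means: F11r, Plaur, Plau, Procr, F3, F13a1, Thbd and F10. With the length of the longest transcript, Procr (54.7) was above Plau (47.7) in controls, and Plau (64.4) above Procr (41.6) at CNV d3. F11r stood at 11495 ± 934 normalized counts per kilobase in controls and 8439 ± 512 in CNV d3 samples (SD, n = 6), which ranked it 60 and 87 of 27238 genes. Plaur followed at 190 ± 23.3 and 199.7 ± 58.7. Plau stood at 47.2 ± 30.5 and 63.7 ± 20.7, below Plaur in all 12 samples. Procr (43.3 ± 34.6 in controls, 33.0 ± 12.9 at CNV d3) was below Plau in 3 of 6 controls and in 6 of 6 CNV d3 samples. The remaining neighbours exchanged places between samples. Procr exceeded F3 in 4 of 6 samples of each group, F3 exceeded F13a1 in 5 of 6, and F13a1 exceeded Thbd in 4 of 6. Thbd exceeded F10 in 1 of 6 controls and in 4 of 6 CNV d3 samples.

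The members also differed in how far samples of 1 group varied. The coefficient of variation of F11r was 8.12% in controls and 6.07% in CNV d3 samples, and that of Plaur was 12.3% and 29.4%. For F3 it was 63.4% and 44.3%, and for Procr 79.9% and 39.0%. The highest value in controls belonged to Thbd, at 245%, where a single sample held all reads.

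After the group means were removed, genes with a mean of at least 100 were ranked by their Pearson correlation with each member over the 12 samples (9710 genes). These values describe shared deviations between libraries of unequal depth and carry no test. Tex264, a receptor of endoplasmic reticulum turnover, was closest to F11r (r = 0.98), followed by Dpm2 and Ddrgk1 (both r = 0.90). Tmem205 (r = 0.90), Eif2s3x (r = 0.84) and Psmb3 (r = 0.83) were closest to Plaur. Within CNV d3 samples alone r was 0.99, 0.91 and 0.93, and within controls it was 0.55, 0.78 and 0.52. Plaur also split by Ddx3y reads among CNV d3 samples, at 628 to 669 without and 328 to 508 with them. The part of this split in these r values was not tested. Plau was most similar to Cdc42bpa (r = 0.90) and Castor1 (r = 0.87). For F13a1 these were Cluh (r = 0.91), Lamtor3 and Elp3 (both r = 0.90).

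F3 and Procr were the 2 members for which control replicate 3 was the only sample without reads, and their closest genes had the highest correlations beside Tex264. Map10 (r = 0.97), Tarbp1 and E430018J23Rik (both r = 0.96) were closest to F3, and Gm47580 (r = 0.98), Ift46 and Zfp646 (both r = 0.97) to Procr. Within CNV d3 samples alone the correlation was lower, at 0.69 for F3 with Map10 and 0.72 for Procr with Gm47580. Thbd had the weakest partners, with Marcks, Abhd17b and Ptpn23 between 0.78 and 0.79. F10, with a mean below 10 normalized counts, was not ranked.

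Of 49 further genes of the pathway in 7 lists, 36 had a row. Among these, 5 were DEG with higher expression at CNV d3 (Serpinf2, Serpini1, F2r, Anxa2 and Itgal) and 0 with lower expression in limma, against 3.91% and 1.07% of all genes. The numbers were 5 and 0 with edgeR, and 4 and 1 with DESeq2, which did not call Serpinf2 (adjusted p = 0.0651) and called Jam3. The median log2 fold change was 0.18. It was 0.32 when 8 genes at or below the limit of 3 reads were left out and those without control reads were set to that limit. In limma at any fold change, 9 passed an adjusted p of 0.05 with higher and 4 with lower expression, against 8.29% and 4.57% of all genes.

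**Figure D5:**
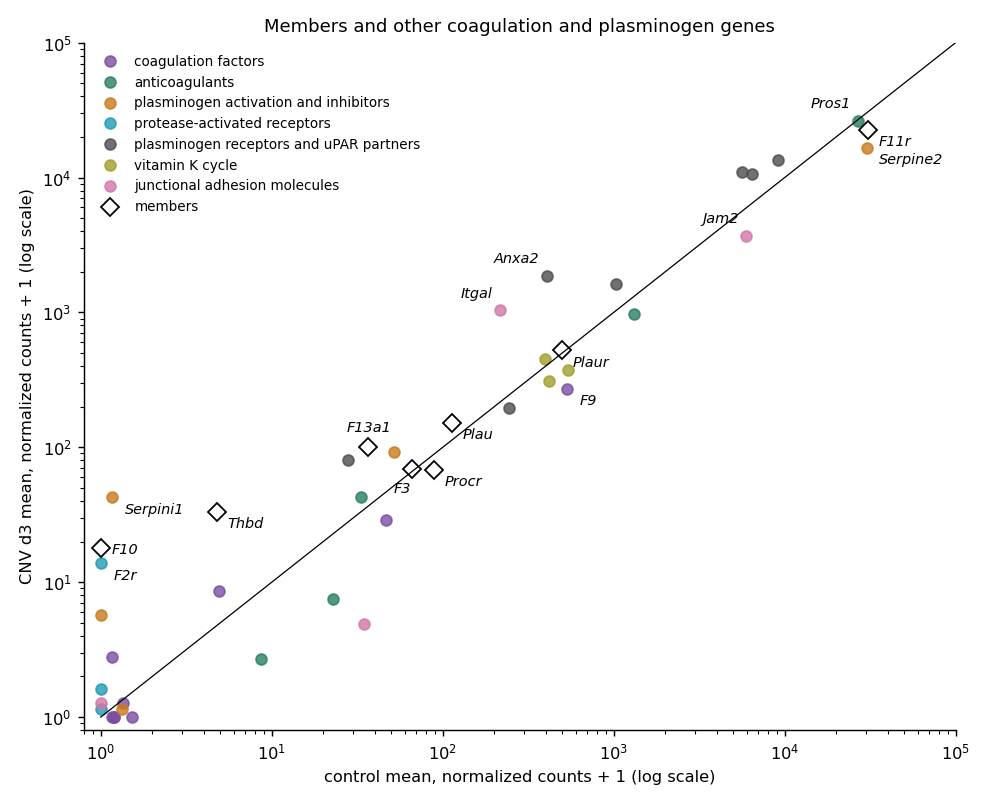
Group means of the 8 members (diamonds) and 36 further coagulation and plasminogen genes (dots, coloured by list), as normalized counts + 1 on log axes, controls against CNV d3 samples. The line marks equal means; Anxa2 and Itgal lie above it, Serpine2, F9 and Jam2 below it, and F10 and F2r sit at the left edge without control reads.

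Of 9 further coagulation factors with a row, 0 were DEG in limma, edgeR or DESeq2, and 1 (F9) had an unadjusted p below 0.05 in limma. F9, which encodes factor IX and lies next to factor X in the cascade, was the most abundant, at 530 ± 199 normalized counts in controls and 270 ± 78.4 in CNV d3 samples (SD, n = 6). It was lower by an adjusted p of 0.0212 in limma, with a log2 fold change of -0.94. In 5 of the 12 fits without 1 sample (control replicate 1 and CNV d3 replicates 2, 3, 5 and 6) this call was lost, with adjusted p up to 0.0620. F8, the cofactor of factor IX, was at 45.8 ± 83.8 and 28.1 ± 15.8 (adjusted p = 0.474). The fibrinogen chains Fga and Fgg had 1 read each over all 12 samples. Prothrombin (F2) had 1 read in controls and 13 in CNV d3 samples, and all 13 fell in 1 sample.

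Of 5 anticoagulants with a row, 0 passed an adjusted p of 0.05 in limma, edgeR or DESeq2, and 1 (Tfpi) had an unadjusted p below 0.05 in limma. Pros1, which encodes protein S, the cofactor of activated protein C, was at 26789 ± 2849 normalized counts in controls and 26310 ± 2439 in CNV d3 samples. Its mean was thus below that of F11r in controls (30610) and above it at CNV d3 (22474). The log2 fold change of Pros1 was -0.02 ± 0.081 (SE, limma adjusted p = 0.848). Tfpi, the inhibitor of tissue factor and factor X, was at 1315 ± 412 and 969 ± 98.1 (adjusted p = 0.180). Proz, the neighbour of F10, was singled out after its values were seen: it was at 32.2 ± 30.2 and 42.2 ± 18.2 normalized counts (adjusted p = 0.486), with reads in 5 of 6 controls, in which F10 had none.

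Inhibitors of plasminogen activation moved in both directions. Serpine2, which encodes protease nexin 1, an inhibitor of thrombin and urokinase, was at 30221 ± 2528 normalized counts in controls and 16688 ± 3483 in CNV d3 samples. It was lower in every CNV d3 sample, with a log2 fold change of -0.88 ± 0.12 (SE, limma adjusted p = 0.000213). Serpini1, which encodes neuroserpin, an inhibitor of tissue plasminogen activator, rose from 1 read in all controls together to 294 reads in CNV d3 samples (limma adjusted p = 0.000686). The ratio of its shares of all reads was 218, with an exact 95% interval for counting error of 38.8 to 8630. Serpinf2, which encodes the plasmin inhibitor antiplasmin, had 0 control reads and 34 CNV d3 reads (adjusted p = 0.0250), and its CNV d3 mean of 4.71 was below the limit of 3 reads in the shallowest control. This call was lost without control replicate 2 or CNV d3 replicate 1, 2 or 3 (adjusted p up to 0.0618).

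Of 3 protease-activated receptors with a row, 1 was a DEG with higher expression, against 3.91% of all genes. F2r, the thrombin receptor PAR1, was at 0 in all controls and at 12.8 ± 15.4 normalized counts in CNV d3 samples (limma adjusted p = 0.0216), at least 2.14-fold higher against the same limit. The median of 5.28 was below that limit, and without CNV d3 replicate 5, which held 38.4, the bound was 1.28-fold. Reads were found in 5 of 6 CNV d3 samples, and the groups touched at 0. The call was lost without control replicate 2 or CNV d3 replicate 3 (adjusted p up to 0.0522). F2rl1 had 5 reads in 1 CNV d3 sample and F2rl3 had 1 read, so F2r was the only receptor with more than a few reads.

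Of 7 plasminogen receptors and partners of uPAR, 5 were higher at an adjusted p below 0.05 (8.29% of all genes) and 1 was a DEG (3.91% of all genes). Anxa2, which encodes the plasminogen-binding annexin A2, rose from 405 ± 98.8 to 1872 ± 555 normalized counts (log2 fold change 2.18 ± 0.22, SE, limma adjusted p = 2.5e-05). Its partner S100a10 did not pass the test, at 244 ± 92.5 and 195 ± 74.8 (adjusted p = 0.537). The plasminogen receptors Eno1 and Plgrkt rose by 0.95 and 0.63 on the log2 scale. Itgam, the integrin chain CD11b used for sorting, rose by 0.72, and the clearance receptor Lrp1, which takes up uPAR with its ligands, by 0.57. The exons of Itgam overlap the same-strand gene Gm49368 over 3450 of 5024 bases, and the effect on its counts was not tested. The call of Lrp1 was lost in 9 of the 12 fits without 1 sample, all but those without control replicate 4, control replicate 6 or CNV d3 replicate 5 (adjusted p up to 0.105).

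F11r belongs to a family of adhesion molecules, and 4 genes of that family or its ligands were measured. Jam2 was lower in every CNV d3 sample, from 5946 ± 692 to 3683 ± 218 normalized counts (log2 fold change -0.68 ± 0.089, SE, limma adjusted p = 0.000182), as was F11r. Jam3 was at 33.6 ± 21.8 and 3.94 ± 3.98 (adjusted p = 0.146), and Esam had 2 reads in 1 sample. Itgal, the LFA-1 chain that binds the F11r protein on leukocytes, rose from 216 ± 96.1 to 1037 ± 384 (log2 fold change 2.30 ± 0.32, SE, adjusted p = 0.000307). Of 3 genes of the vitamin K cycle, which prepares factors IX and X and protein S for calcium binding, Vkorc1 was lower (539 ± 42.4 and 370 ± 47.2, limma adjusted p = 0.0179), a call that was lost with edgeR (adjusted p = 0.0539). The exons of Vkorc1 overlap the same-strand gene Gm21974 over 401 of 840 bases, and the effect on its counts was not tested. Vkorc1l1 was at 396 ± 134 and 447 ± 98.5 (adjusted p = 0.584).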

How the data were processed

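The authors sorted retinal microglia and made cDNA with the SMARTer Ultra Low kit. They sequenced single reads, aligned them by STAR (2.7.2b) using Gencode M25 annotation, joined 2 alignment files per sample and counted reads per gene with featureCounts (1.6.4), without strand. The deposited signal values are counts divided by size factors of DESeq2 (1.22.2), for genes with reads in at least 1 sample. Columns with the authors' group mean, fold changes and adjusted p-values were not used.

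Whole reads were recovered in 100% of values (within 0.01 of a read). limma (3.58.1, trend) was fitted in R (4.3.3) on log2(value + 1) of all 27299 genes, with Benjamini-Hochberg adjustment. Alternatives used edgeR (4.0.16), DESeq2 (1.42.0) or voom on recovered reads, other pseudocounts and filters, a replicate block, Ddx3y as covariate and each sample left out. Fits were tested on simulated data. Gene positions and exon lengths came from Gencode M21 (GRCm38), which matched 27238 genes.

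The members and lists were chosen with earlier results of these data known. Genes named were the members, list genes that were DEG or among the 2 most abundant of a list, and the 3 genes most like each member; list genes with an adjusted p below 0.05 and some with few reads were added after their values were seen. Intervals for reads cover counting error only. Some genes that this rule selects are not reported here.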

Additional observations from a re-analysis of the deposited data

Results flagged for a closer look

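In CNV d3 samples, the 40.0 normalized counts of F10 in replicate 5 stood apart from the other 5 samples, the nearest of which held 16.1, a gap of 0.754 of the whole range. In controls, Thbd reads were found in replicate 1 only, at 22.5 normalized counts, with the other 5 samples at 0. About 1 in 20 groups is marked in this way by chance.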

How the results depend on the processing

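With fewer than 100 normalized counts in most samples, F3, F10, F13a1, Thbd and Procr rested on few reads, and their fold changes depended on how low values were treated. The number of DEG members, 1 in limma, was 2 with voom (F13a1 added, adjusted p = 0.0404), 0 with a pseudocount of 10, 2 at any fold change, and 1 to 3 when 1 sample was left out. F10 was removed by a filter of 10 normalized counts in 6 samples, under which F13a1 was a DEG (adjusted p = 0.0417), so the count stayed at 1. Across the other alternatives F10 ranged from 1.34 to 7.16 on the log2 scale with adjusted p of 8.38e-07 to 0.00535, and F11r from -0.45 to -0.42 with adjusted p of 5.01e-09 to 0.0292. Procr reversed to -0.37 with edgeR and -0.40 with DESeq2. With 1 sample left out, Procr ranged from -0.59 to 0.96, F3 from -0.29 to 1.10 and Plaur from -0.061 to 0.14. Per kilobase of the longest transcript, the CNV d3 level was 25.2 for F13a1 and 260.1 for Plaur, in place of 14.8 and 199.7.

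The further genes of the pathway gave 5 DEG in limma, 3 with a pseudocount of 10, 2 with the filter, 13 at any fold change and 3 to 5 with 1 sample left out, with the 3 reached without CNV d3 replicate 3. All genes gave 1361 DEG, of which 1068 were increased and 293 decreased. These were 804 and, increased, 600 with a pseudocount of 10; 881, 690 and 191 with Ddx3y as covariate; and 3511, 2264 and 1247 at any fold change. In the comparison of CNV d3 replicates 1 to 3 with all controls, chosen after seeing the data, they were 690, 524 and 166. Decreased genes were 572 with DESeq2, 489 with voom and 470 at a fold threshold of 1. With 1 sample left out the totals were 1087 to 1365, with 829 to 1041 increased and 237 to 358 decreased. The cause was not tested where a smaller number of samples or genes does not show it.

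Samples with the same replicate number shared no deviations (r between -0.01 and 0.05 over 13614 genes), and 1 of 6 numbers matched best with itself. Such values cannot show whether samples of the same number were collected or processed together, which the labels do not state. With the replicate block 1136 genes were DEG, F10 had an adjusted p of 0.00535 and F11r of 0.00712, and no member changed its call.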
